A study of Mus musculus with 8 samples.

Results

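The 28 genes described here are markers of the cerebellar granule lineage (11 genes), of Hedgehog signalling (7), of young neurons (5) and of mature neurons (5). They were taken by symbol from a table of 38026 genes, and all 28 were found in it. RNA-seq of 8 mouse libraries was available, each made from cells caught with magnetic beads against CD11b, a myeloid integrin subunit. In 5 libraries the cells were labelled tumor-associated microglia/macrophage (TAMs) and came from medulloblastoma, in C57BL/6 mice aged 68, 90, 61, 66 and 62 days for replicates 1 to 5. In the other 3 libraries they were labelled normal microglia and came from the cerebral cortex of C57BL/6 mice aged 60 days. All tissue was digested with papain and DNase I and depleted of myelin before capture, and RNA was extracted with Trizol. The sources used here do not give the genotype or the tumour model of the mice, nor whether the cortex came from tumour-bearing mice. Tumour and brain region therefore changed together between the groups, and their effects cannot be told apart.

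Granule neuron precursors of the cerebellum divide in response to Sonic hedgehog, which binds the receptor Patched (Ptch1) and thereby frees Smoothened to activate Gli transcription factors. Gli1, Ptch1 and Hhip are themselves targets of the pathway, and Ptch1 and Hhip restrain it. Atoh1 marks the dividing precursors, Neurod1 and the Nhlh genes accompany their exit from the cell cycle, and Zic genes and Pax6 are expressed through the lineage. Medulloblastoma of the Hedgehog type is known to keep this programme. None of the 28 genes is a usual marker of microglia, and the table does not say which cells their RNA came from.

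Values were TPM, transcripts scaled to a fixed total per library, a level per transcript length, so levels of different genes can be set side by side. Read depth cannot be recovered from TPM, so no counting interval is given. The check of the labels found RNA of myeloid cells in all 8 libraries: 10 microglia and macrophage genes summed to between 7894 and 18399 TPM in the TAM libraries and between 19461 and 23731 TPM in the microglia libraries, and none was listed at 0. The 28 genes together summed to 17.0 to 148 TPM in TAMs and 41.5 to 187 TPM in microglia. Regional genes were checked as well, and 12 genes of the cortex summed to 14.7 to 39.4 TPM in the microglia libraries and to 1.84 to 8.07 TPM in TAMs, where Fezf2 was listed at 0 throughout. A list of 12 cerebellum and hindbrain genes did not tell the tissues apart. Its sums overlapped, at 1.09 to 4.64 TPM in TAMs and 2.28 to 5.24 TPM in microglia, with Skor2 at 0 in all 8 libraries. In such bulk samples, fewer cells of a type and less RNA per cell cannot be told apart.

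Promoter windows are shown for 3 of the granule lineage genes whose TAM and microglia values did not overlap, to place the genes and the letters searched in them. Each window holds the 250 bases before an annotated start (RefSeq, build GRCm38.p6), read 5′ to 3′ on the strand of the gene. None of the windows shown holds an annotated exon. Capitals mark an E-box, the hexamer bound by basic helix-loop-helix factors such as Atoh1, Neurod1 and Nhlh1, in the forms CAGCTG or CAGATG searched on both strands.
Atoh1, chr6:64728875-64729124, plus strand: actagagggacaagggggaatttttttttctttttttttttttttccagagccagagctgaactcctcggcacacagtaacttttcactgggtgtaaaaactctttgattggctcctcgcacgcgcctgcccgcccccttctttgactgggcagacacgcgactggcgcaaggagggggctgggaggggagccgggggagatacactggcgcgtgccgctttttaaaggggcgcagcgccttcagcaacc
Barhl1, chr2:28916669-28916918, minus strand: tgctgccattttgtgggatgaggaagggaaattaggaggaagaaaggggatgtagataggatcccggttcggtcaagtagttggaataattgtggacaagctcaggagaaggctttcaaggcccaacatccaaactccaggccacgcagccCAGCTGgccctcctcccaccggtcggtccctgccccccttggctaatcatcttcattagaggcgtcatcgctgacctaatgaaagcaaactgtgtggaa
Nhlh1, chr1:172057597-172057846, minus strand: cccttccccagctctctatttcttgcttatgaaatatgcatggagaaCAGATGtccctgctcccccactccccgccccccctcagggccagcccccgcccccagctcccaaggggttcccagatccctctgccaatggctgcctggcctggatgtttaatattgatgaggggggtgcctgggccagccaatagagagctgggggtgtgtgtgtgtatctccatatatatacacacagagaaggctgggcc

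The Barhl1 window shown holds CAGCTG starting 99 bases before the start, the Nhlh1 window holds CAGATG 203 bases before it, and neither form is in the Atoh1 window. Barhl1 has another window, chr2:28912496-28912745, not shown, with CAGCTG 15 bases before its start. A window was given for 21 of the 28 genes, 25 windows in all. CAGCTG was in 4 of the 25 windows (of Barhl1, Sox11 and Syt1) against 13.0% of 32851 windows of the same length, and CAGATG in 3 (of Nhlh1, Nhlh2 and Nrgn) against 14.4%. The Gli consensus GACCACCCA was in 0.225% of all windows and in none of these 25. A match is a run of letters and not a measured site.

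The table allows 1 comparison, of TAMs against normal microglia. Genes that reached 1 TPM in 3 or more libraries were tested with limma on log2(TPM + 1), which left 15262 genes and 20 of the 28. Log2 fold changes (TAM minus microglia) are on that scale, where the change of low genes comes out too small, and adjusted p-values are Benjamini-Hochberg values over all 15262. Of the 28 genes 5 were higher in TAMs (Atoh1, Barhl1, Insm1, Neurod1 and Tubb3) and 6 were lower (Map2, Nrgn, Ptch1, Snap25, Stmn2 and Zic2). Over all genes tested 8.22% were higher and 56.4% were lower, with a median log2 fold change of -0.65 against -0.21 over the 20. Because most genes were listed lower in TAMs, the fit was also made on rescaled TPM, in which each library is divided by its median ratio to the geometric mean library. The median over all genes was then 0.05, with 27.3% called higher and 21.2% lower. On that scale 7 of the 28 were higher (Nhlh1 and Rbfox3 were added) and 5 were lower (Map2 was lost).

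These counts cannot be read as support for a change of the whole group, because 6 of the 20 genes passed the minimum through TAM libraries alone (Atoh1, Barhl1, Neurod1, Nhlh1, Insm1 and Mycn) and 1 through microglia libraries alone (Nrgn). With no minimum, all 28 were tested, and 3 were higher (Barhl1, Neurod1 and Tubb3) and 6 lower (Nrgn, Ptch1, Snap25, Stmn2, Syt1 and Zic2). Over the 27465 genes above 0 in some library, that fit called 1215 higher and 11078 lower. The authors' deposited table holds unadjusted DESeq2 p-values, which on adjustment here over 27039 genes gave 12 of the 28 higher and 7 lower, against 17.6% and 16.0% of all genes with a p-value. In TPM, every TAM library was above every microglia library for 9 of the 28 genes and below every microglia library for 6, against 4.97% and 36.5% of all genes listed above 0.

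**Figure D1:**
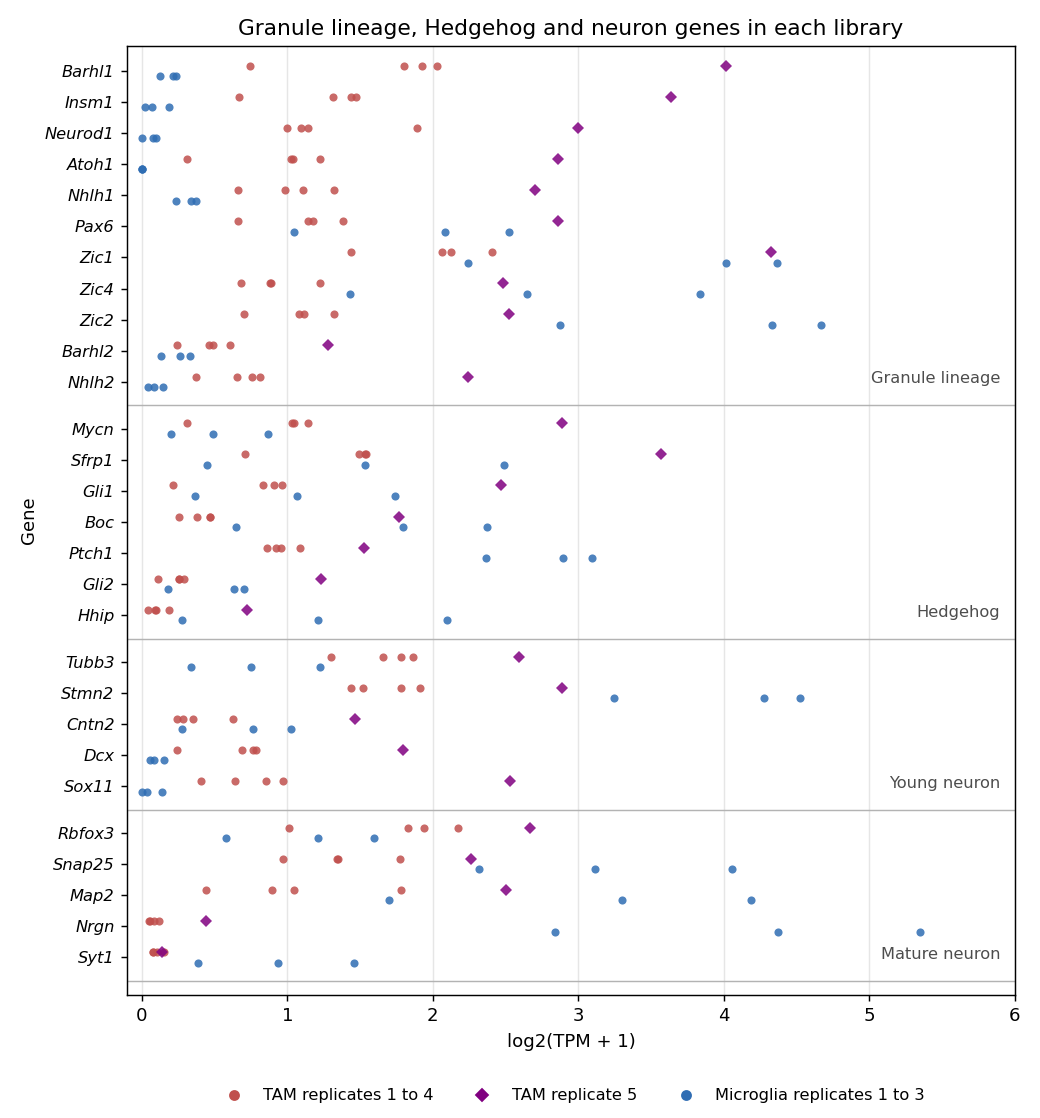
Level of each of the 28 genes in each library, as log2(TPM + 1) on the horizontal axis, with 1 point per library and the genes in 4 groups. Red circles are TAM replicates 1 to 4, purple diamonds TAM replicate 5 and blue circles microglia. Atoh1, Barhl1, Insm1 and Neurod1 lie near 0 in microglia and higher in TAMs, Nrgn lies near 0 in TAMs, and the diamond is the rightmost TAM point for 27 genes.

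The granule lineage genes split. Those of the precursors and of newly formed granule neurons were found in TAMs and barely in microglia, while the Zic genes were higher in cortical microglia or overlapped. Atoh1 (chromosome 6, 64729125 to 64731245 on mm10), the helix-loop-helix factor that defines the precursors, was at 1.06, 0.238, 1.33, 1.03 and 6.27 TPM in TAM replicates 1 to 5 and was listed at 0 in all 3 microglia libraries. The groups did not overlap, and replicate 5 alone stood well above the rest. By limma there was a difference of 1.29 ± 0.49 (log2, SE), adjusted p = 0.0460. That call was held in 2 of the 8 fits that leave out 1 library, with adjusted p from 0.0123 to 0.115, and it was lost on dropping TAM replicate 1, 3 or 4 or any microglia library. Atoh1 passed the minimum through TAM libraries alone, and with no minimum it was not called (limma, adjusted p = 0.0680).

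Neurod1 (chromosome 2, 79452521 to 79456751), a factor of differentiating granule neurons, was at 1.14, 0.998, 1.20, 2.72 and 7.00 TPM in TAMs and at 0, 0.071 and 0.054 TPM in microglia. Every TAM library was above every microglia library. In the limma fit the difference was 1.57 ± 0.45 (log2, SE), at an adjusted p = 0.0147, and Neurod1 was called higher in 8 of 8 fits without 1 library. Neurod1 too passed the minimum through TAM libraries alone, and with no minimum it was still called (limma, adjusted p = 0.0258). In the authors' deposited table its log2 fold change was 6.13. Some 7.37% of its annotated exon bases are shared with Cerkl on the same strand, a gene at 1.29 to 3.31 TPM in TAMs and 0.925 to 2.18 TPM in microglia, so that some reads may belong to either.

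Barhl1 (chromosome 2, 28907679 to 28916668), a homeobox gene of granule neurons, was at 2.80, 0.675, 3.08, 2.48 and 15.2 TPM in TAMs and at 0.176, 0.092 and 0.159 TPM in microglia. The means were 4.84 ± 5.86 TPM (SD, n = 5) and 0.142 ± 0.044 TPM (SD, n = 3), so the spread among TAMs exceeded their mean although the groups were apart. TAMs differed from microglia by 1.91 ± 0.61 (log2, SE) in the limma fit (adjusted p = 0.0234), called in 5 of 8 fits without 1 library and in none that left out a microglia library. Barhl1 passed the minimum through TAM libraries alone, and with no minimum its adjusted p was 0.0414 (limma). Insm1 (chromosome 2, 146221921 to 146225020), a zinc finger factor of cells leaving the cycle to become neurons, was at 1.77, 0.591, 1.49, 1.71 and 11.4 TPM in TAMs and at 0.013, 0.141 and 0.049 TPM in microglia. Again the groups did not overlap and replicate 5 was far above the rest. By limma there was a difference of 1.61 ± 0.58 (log2, SE), adjusted p = 0.0374, called in 3 of 8 fits without 1 library and lost without TAM replicate 1 or 4 or any microglia library. Insm1 also passed the minimum through TAM libraries alone, and with no minimum it was not called (limma, adjusted p = 0.0601).

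Nhlh1 and Nhlh2 encode helix-loop-helix factors of newly formed neurons. Nhlh1 was at 1.16, 0.582, 0.982, 1.49 and 5.51 TPM in TAMs and at 0.178, 0.297 and 0.262 TPM in microglia. The groups did not overlap, but the log2 fold change of 1.04 ± 0.42 (SE) missed the threshold (limma, adjusted p = 0.0560) and passed it on rescaled TPM (1.29, adjusted p = 0.0206). Nhlh1 had passed the minimum through TAM libraries alone. Nhlh2 was too low to be tested, at 0.294 to 3.73 TPM in TAMs and 0.030 to 0.106 TPM in microglia, without overlap. Barhl2, the paralogue of Barhl1, was not tested either, at 0.181 to 1.43 TPM in TAMs and 0.097 to 0.257 TPM in microglia, and its groups overlapped through TAM replicate 2. In the authors' deposited table the log2 fold changes of Nhlh1, Nhlh2 and Barhl2 were 3.49, 4.49 and 2.23.

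Zic2 (chromosome 14, 122475435 to 122479852), a zinc finger factor of the granule lineage and of other parts of the brain, went the other way. It was at 1.17, 0.627, 1.11, 1.49 and 4.75 TPM in TAMs and at 6.34, 24.4 and 19.1 TPM in microglia. The groups did not overlap, although TAM replicate 5 and microglia replicate 1 came close. In the limma fit the difference was -2.61 ± 0.50 (log2, SE), at an adjusted p = 0.00253, and -1.96 on rescaled TPM. It was called in 8 of 8 fits without 1 library.

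Zic1 was at 3.18, 1.71, 3.36, 4.31 and 19.1 TPM in TAMs and at 3.72, 19.6 and 15.2 TPM in microglia. Its groups overlapped, and the log2 fold change of -1.07 ± 0.69 (SE) did not pass (limma, adjusted p = 0.199). Zic4 was at 0.603 to 4.58 TPM in TAMs and 1.70 to 13.3 TPM in microglia, with a log2 fold change of -1.41 (limma, adjusted p = 0.0587). Without TAM replicate 5 both were called lower on TPM, with limma adjusted p of 0.0298 and 0.0188. On rescaled TPM without that library neither was called, with log2 fold changes of -0.75 and -1.08 (limma, adjusted p of 0.179 and 0.0615). The pair lie beside each other on opposite strands of chromosome 9 and share 60 exon bases, and whether counting used the strand is not stated. Pax6, which is also expressed in cortical progenitors and astrocytes, was at 0.578 to 6.25 TPM in TAMs and 1.07 to 4.74 TPM in microglia, a log2 fold change of -0.44 on TPM (limma, adjusted p = 0.469) against 0.10 after rescaling.

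Markers of vessels, which are not part of the granule lineage, were lower in TAMs as Zic2 was. The 10 endothelial markers summed to 669 to 2145 TPM in microglia and 15.7 to 99.0 TPM in TAMs, and the 10 mural and meningeal markers to 288 to 832 and 7.83 to 29.9 TPM. All 20 entries were called lower in TAMs (18 on rescaled TPM), against 56.4% of all genes tested (21.2% on rescaled TPM). Astrocyte markers, 10 in number, summed to 110 to 725 TPM in microglia and 16.7 to 77.4 TPM in TAMs. Their part in the Zic and Pax6 values was not tested.

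The Hedgehog genes showed no common direction. The receptor and target gene Ptch1 (chromosome 13, 63508328 to 63573598) was at 0.819, 0.895, 1.12, 0.938 and 1.88 TPM in TAMs and at 4.16, 7.55 and 6.44 TPM in microglia. No TAM library reached the lowest microglia library. The means were 1.13 ± 0.436 TPM (SD, n = 5) and 6.05 ± 1.73 TPM (SD, n = 3), a level 5.35 times higher in microglia. TAMs differed from microglia by -1.72 ± 0.24 (log2, SE) in the limma fit (adjusted p = 0.000554), -1.12 on rescaled TPM and -1.59 in the authors' deposited table. It was called in 8 of 8 fits without 1 library.

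Gli1 (chromosome 10, 127329889 to 127341589), the transcription factor most often read as the output of the pathway, did not follow Ptch1. Its values were 0.778, 0.162, 0.951, 0.876 and 4.53 TPM in TAMs and 0.286, 2.34 and 1.09 TPM in microglia. The groups overlapped, and the log2 fold change was 0.02 ± 0.50 (SE) (limma, adjusted p = 0.974). The sign turned without microglia replicate 1, to -0.33. Its exons share 62 bases with Arhgap9 on the opposite strand, a gene at 42.2 to 62.1 TPM in TAMs and 49.5 to 57.5 TPM in microglia, far above Gli1 itself. Gli2, the main activator, was not tested, at 0.078 to 1.35 TPM in TAMs and 0.131 to 0.625 TPM in microglia.

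Hhip, a decoy receptor and target, was not tested, at 0.140, 0.066, 0.031, 0.068 and 0.647 TPM in TAMs and 0.214, 3.29 and 1.32 TPM in microglia. TAM replicate 5 overlapped microglia replicate 1, and the other TAM libraries were lower than all 3. Boc, a co-receptor for the ligand, was at 0.192 to 2.40 TPM in TAMs and 0.564 to 4.17 TPM in microglia (log2 fold change -0.94, limma adjusted p = 0.104).

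Mycn, the factor that drives division of the precursors, was at 1.07, 0.238, 1.04, 1.20 and 6.39 TPM in TAMs and 0.149, 0.827 and 0.407 TPM in microglia. Only TAM replicate 2 overlapped microglia, and the log2 fold change of 0.76 ± 0.51 (SE) did not pass (limma, adjusted p = 0.215), while the authors' deposited table gave 2.60. Sfrp1, a secreted Wnt antagonist expressed in Hedgehog-type tumours, was at 1.90, 0.632, 1.81, 1.91 and 10.9 TPM in TAMs and 0.363, 4.61 and 1.90 TPM in microglia. Its groups overlapped, and its log2 fold change of 0.28 (limma, adjusted p = 0.723) turned to -0.17 without TAM replicate 5. No Hedgehog member of the 5 tested was called higher by limma, none at an unadjusted p below 0.05 either. Over all genes tested by limma 8.22% were called higher. By the authors' deposited DESeq2 p-values, adjusted here, 1 of the 7 was higher (Mycn) and 2 were lower (Ptch1 and Hhip). Over all genes with such a p-value 17.6% were higher and 16.0% lower. The deposited log2 fold change of Hhip was -2.05 (DESeq2, adjusted p = 0.0411).

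**Figure D2:**
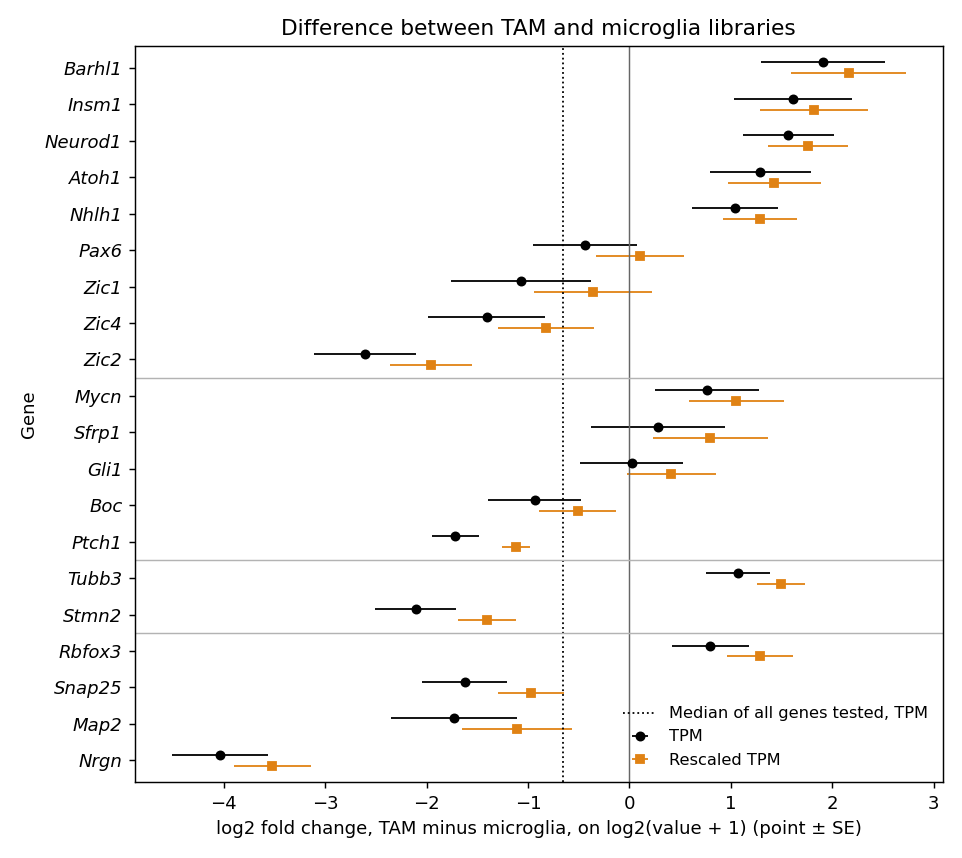
Log2 fold change of the 20 tested genes, TAM minus microglia, on log2(value + 1), with bars of 1 SE, from TPM (black circles) and rescaled TPM (orange squares). The dotted line marks the median of all 15262 genes on TPM, -0.65. Barhl1, Neurod1, Insm1 and Atoh1 lie above 1 on both scales, Nrgn and Zic2 lie lowest, and Gli1 lies near 0.

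Genes of young neurons were also unequal. Tubb3 (chromosome 8, 123411424 to 123422015), the neuronal beta-tubulin, was at 2.44, 1.46, 2.15, 2.65 and 5.03 TPM in TAMs and at 0.264, 1.34 and 0.685 TPM in microglia. Every TAM library was above every microglia library, TAM replicate 2 by little. By limma there was a difference of 1.07 ± 0.32 (log2, SE), adjusted p = 0.0173, called in 6 of 8 fits without 1 library and lost without microglia replicate 1 or 3. Dcx, which binds microtubules in migrating neurons, was not tested, at 0.695, 0.183, 0.612, 0.723 and 2.47 TPM in TAMs and 0.041, 0.109 and 0.060 TPM in microglia. Sox11, a factor of immature neurons, was not tested, at 0.561, 0.325, 0.961, 0.803 and 4.79 TPM in TAMs and 0, 0.099 and 0.025 TPM in microglia. For both the groups did not overlap, and the authors' deposited table gave log2 fold changes of 4.20 and 5.09.

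Stmn2 (chromosome 3, 8509360 to 8561606), a stathmin of growing axons, was the reverse, at 1.87, 2.44, 1.71, 2.77 and 6.39 TPM in TAMs and 8.51, 22.0 and 18.4 TPM in microglia. No library of the TAM group reached the microglia group. In the limma fit the difference was -2.11 ± 0.40 (log2, SE), at an adjusted p = 0.00229, -1.41 on rescaled TPM, and it was called in 8 of 8 fits without 1 library. Cntn2, an adhesion molecule of young granule axons, was not tested, at 0.182 to 1.76 TPM in TAMs and 0.211 to 1.03 TPM in microglia.

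Of the 5 mature neuron genes 4 were tested and 3 of them were lower in TAMs, against 56.4% of all genes tested. On rescaled TPM 2 of the 4 were lower and 1 was higher, against 21.2% and 27.3% of all genes tested. Nrgn (chromosome 9, 37544492 to 37552904), a postsynaptic calmodulin-binding protein abundant in forebrain neurons, was at 0.038, 0.036, 0.086, 0.059 and 0.361 TPM in TAMs and at 6.16, 39.7 and 19.7 TPM in microglia. The highest TAM library was far below the lowest microglia library. TAMs differed from microglia by -4.04 ± 0.48 (log2, SE) in the limma fit (adjusted p = 0.000298), and the authors' deposited table gave -6.34. The fits without a microglia library did not test it, since it then failed the minimum, which it had passed through microglia libraries alone. With no minimum its adjusted p was 0.000909 (limma).

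Snap25, a protein of the vesicle fusion machinery, was at 1.55, 1.53, 0.958, 2.43 and 3.80 TPM in TAMs and at 3.99, 15.7 and 7.66 TPM in microglia. The groups were apart by a small margin and overlapped on rescaled TPM. By limma there was a difference of -1.62 ± 0.42 (log2, SE), adjusted p = 0.00933, and -0.97 after rescaling (adjusted p = 0.0366). Syt1, the calcium sensor of synaptic vesicles, was not tested, at 0.054 to 0.111 TPM in TAMs and 0.308 to 1.75 TPM in microglia, without overlap.

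Map2, a dendritic microtubule protein, was at 2.44, 0.354, 0.855, 1.07 and 4.67 TPM in TAMs and at 2.24, 17.2 and 8.85 TPM in microglia. Its groups overlapped through microglia replicate 1, and its log2 fold change of -1.73 ± 0.62 (SE) (limma, adjusted p = 0.0367) was not called on rescaled TPM (-1.11, adjusted p = 0.123). It was called in 3 of 8 fits without 1 library and lost without TAM replicate 2, 3 or 4 or microglia replicate 2 or 3. Rbfox3, the antigen NeuN of most mature neurons, granule cells included, had the opposite sign. It was at 3.50, 1.02, 2.56, 2.83 and 5.35 TPM in TAMs and at 0.494, 2.02 and 1.31 TPM in microglia, a log2 fold change of 0.80 ± 0.38 (SE) (limma, adjusted p = 0.0934). On rescaled TPM it was 1.29 (adjusted p = 0.0121), with no overlap. None of the 4 mature neuron members tested was called higher on TPM by limma, at an unadjusted p below 0.05 included, and in the authors' deposited table Rbfox3 was the 1 higher gene.

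Markers of other cortical cells moved with the mature neuron genes. Oligodendrocyte markers, 10 in number, summed to 167 to 862 TPM in microglia and 45.7 to 57.3 TPM in TAMs, with Opalin listed at 0 in every TAM library, and the sums for endothelial cells and astrocytes given above differed in the same direction. The part of these cells in the values for neuron genes was not tested.

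**Figure D3:**
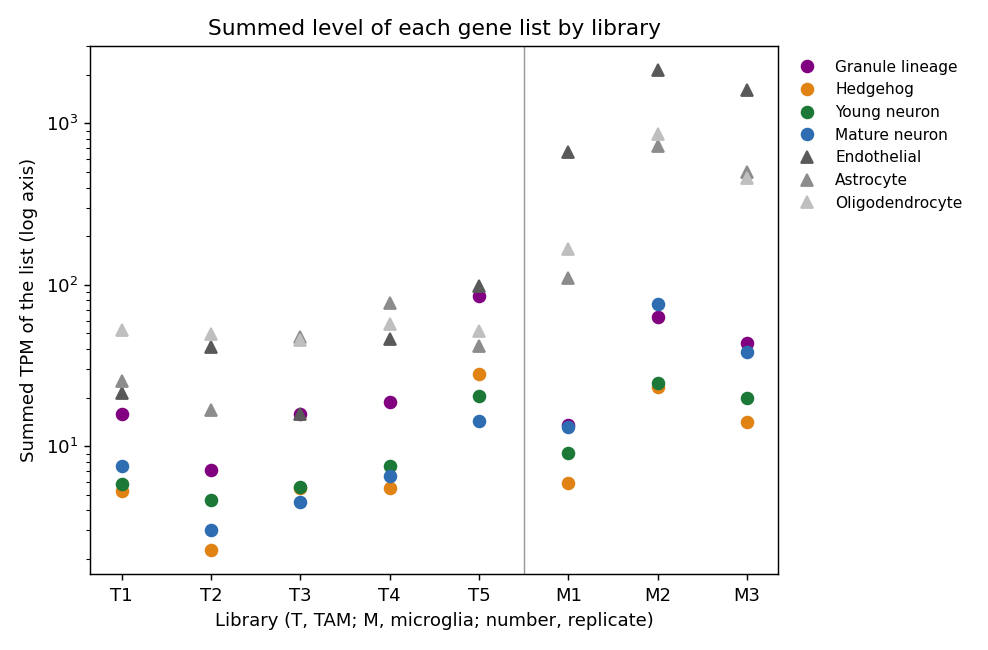
Summed TPM of 4 groups of the 28 genes (coloured circles) and of markers of 3 other cell types (grey triangles) in each library, on a log axis, for TAM replicates T1 to T5 and microglia replicates M1 to M3. The granule lineage sum is 85.2 TPM in T5 and 7.08 to 18.9 TPM in T1 to T4. All 7 sums are lower in M1 than in M2 and M3.

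Within the TAM group a single library set most of the spread. TAM replicate 5 was the highest of the 5 for 27 of the 28 genes, on TPM and on rescaled TPM, with Syt1 the exception. Over all genes above 0 in some TAM library, replicate 5 was the highest for 55.2% on TPM and for 28.6% on rescaled TPM. The granule lineage genes summed to 15.9, 7.08, 15.8, 18.9 and 85.2 TPM in replicates 1 to 5, and the Hedgehog genes to 5.30, 2.26, 5.54, 5.50 and 28.1 TPM. The level in replicate 5 over the median of the other 4 TAM libraries ranged from 1.52 for Syt1 to 9.71 for Hhip. Its median was 5.61 over the 28 genes (3.93 rescaled), against 1.31 over all genes tested (0.94 rescaled).

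By role the median ratio was 5.74 for the granule lineage, 6.05 for Hedgehog, 3.79 for young neurons and 2.47 for mature neurons. Lists of other genes of the same roles, outside the 28, had lower medians. These were 2.45 for the granule lineage (1.74 rescaled) and 1.68 for Hedgehog (1.19 rescaled). They were 2.73 for young neurons (1.94 rescaled) and 2.28 for mature neurons (1.63 rescaled), against 1.31 over all genes tested (0.94 rescaled). For mature neurons the medians inside and outside the 28 were close, at 2.47 and 2.28. The ratio was 6.00 for Atoh1 and 5.74 for Barhl1, which were called higher in TAMs, and 4.17 for Zic2, which was called lower. Among the 28 genes the ratio was lowest for Syt1, Rbfox3 (1.98), Ptch1 (2.06) and Tubb3 (2.19). Endothelial markers moved with it, with a median ratio of 5.60, as did mural and meningeal markers at 3.01. Astrocyte markers were at 1.92 and oligodendrocyte markers at 2.17. For the microglia and macrophage genes the median ratio was 0.95 and for 16 cell division genes 0.96. TAM replicate 5 had 14242 genes at 1 TPM or more and the other 4 TAM libraries 12683 to 12866. The part of other cells or of depth in the excess was not tested.

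**Figure D4:**
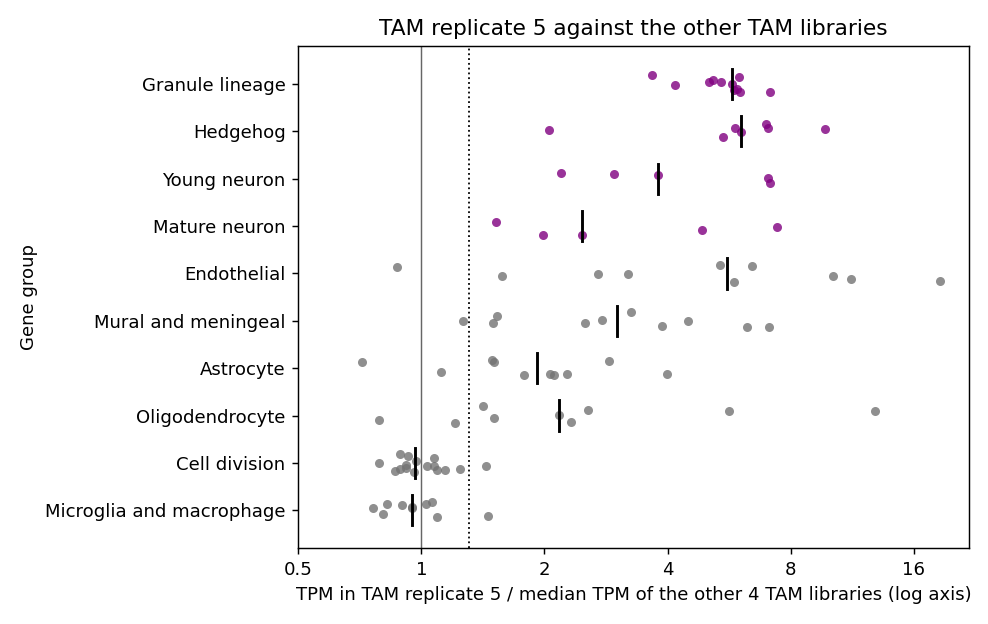
TPM in TAM replicate 5 over the median of the other 4 TAM libraries, on a log axis, with 1 point per gene and a black bar at the median of each group. Purple points are the 28 genes in their 4 groups and grey points are genes of 6 comparison lists. The solid line marks a ratio of 1 and the dotted line the median of all genes tested, 1.31. The granule lineage and Hedgehog medians, 5.74 and 6.05, lie near that of endothelial markers, 5.60. Lists of other granule lineage and Hedgehog genes, with medians of 2.45 and 1.68, are not drawn.

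The lowest TAM library was replicate 2, from the mouse aged 90 days. It was the lowest of the 5 for 22 of the 28 genes, including all 11 of the granule lineage, against 26.0% of all genes tested. With 1 mouse of that age, age and library cannot be told apart. Among the microglia libraries, replicate 1 was the lowest for 24 of the 28 genes on TPM and on rescaled TPM, against 74.1% and 30.3% of all genes tested. Sums of endothelial markers (669, 2145 and 1615 TPM in microglia replicates 1 to 3), astrocyte markers (110, 725 and 496) and oligodendrocyte markers (167, 862 and 461) were lowest in the same library. Their part in the values of replicate 1 was not tested.

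Without TAM replicate 5, the same 5 genes were higher on TPM and 8 were lower, with Zic1 and Zic4 added. On rescaled TPM without that library 6 were higher and 5 lower, and neither Zic1 nor Zic4 was called. Leaving out a microglia library cost most: without replicate 1, 2 or 3 the genes still called higher were 1 (Neurod1), 2 (Neurod1 and Tubb3) and 1 (Neurod1). Ptch1, Snap25, Stmn2 and Zic2 were called lower in each of the 8 fits on TPM. On rescaled TPM Snap25 was not called without TAM replicate 1, 2 or 3 or microglia replicate 2 or 3 (limma, adjusted p from 0.0622 to 0.149).

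Other genes of the same pathways were followed in lists that exclude the 28. Of 22 other genes of the granule lineage 11 were tested, and 4 were lower. Over all genes tested 56.4% were lower and 8.22% higher (21.2% and 27.3% on rescaled TPM). Among the 4 were Etv1, Zic5 and Sema6a, the first a factor of granule cell maturation and of cortical projection neurons. Etv1 averaged 3.33 ± 1.24 TPM (SD, n = 5) in TAMs against 25.1 ± 3.23 TPM (SD, n = 3) in microglia, a log2 fold change of -2.63 ± 0.24 (SE) (limma, adjusted p = 0.000102). None was higher by limma, none at an unadjusted p below 0.05, and 1 on rescaled TPM (Pard6a). In the authors' deposited table a further set of 5 was higher, namely Tlx3, Olig3, Pde1c, Gabra6 and Pard6a. Tlx3, a homeobox gene, was at 0.605, 0.253, 0.583, 0.408 and 0.997 TPM in TAMs and listed at 0 in all microglia libraries, as Atoh1 was. Gabra6, the receptor subunit of mature granule cells, was at 0.060 to 0.272 TPM in TAMs and at most 0.016 TPM in microglia.

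Of 29 other Hedgehog genes 21 were tested, and 14 were lower on TPM but 7 on rescaled TPM. Over all genes tested 56.4% and 21.2% were lower, and 8.22% and 27.3% higher. Without microglia replicate 2 or 3, 9 genes of this list were lower. Over all genes the count called lower fell from 8610 to 5581 and 5760 in those fits. Scube1, which helps release the ligand, averaged 0.269 ± 0.166 TPM (SD, n = 5) in TAMs against 4.43 ± 0.180 TPM (SD, n = 3) in microglia (log2 fold change -2.11, limma adjusted p = 6.44e-05). Ccnd1, the cyclin that Hedgehog signalling induces in precursors, was at 29.0 ± 5.75 and 85.3 ± 5.86 TPM (log2 fold change -1.54, limma adjusted p = 0.000184). Sufu, the inhibitor that holds Gli proteins in the cytoplasm, had a log2 fold change of -1.12, and -0.36 on rescaled TPM. Spop and Arl13b were lower on TPM (-0.78 and -0.90) but were not called on rescaled TPM (0.03 and -0.17). No gene of this list was higher by limma on TPM, none at an unadjusted p below 0.05, and Kif3a was higher on rescaled TPM and in the authors' deposited table.

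Of 26 other genes of young neurons 21 were tested, and 3 were higher and 7 lower (4 and 5 on rescaled TPM). The shares over all genes tested were 8.22% and 56.4% (27.3% and 21.2% on rescaled TPM). The 3 higher genes were Stmn1, Crmp1 and Igfbpl1. Stmn1, a stathmin also known from dividing cells, averaged 106 ± 33.8 TPM (SD, n = 5) in TAMs against 34.2 ± 14.6 TPM (SD, n = 3) in microglia. It was highest in TAM replicate 2, at 95.0, 151, 105, 59.2 and 121 TPM. Cell division genes were higher too, 15 of 16, against 8.22% of all genes tested. They summed to 315 to 519 TPM in TAMs and 177 to 216 TPM in microglia, and their part in the Stmn1 value was not tested. Crmp1 was at 4.23, 1.78, 4.33, 4.31 and 11.9 TPM in TAMs and 0.206, 1.01 and 0.590 TPM in microglia, with the high replicate 5 and low replicate 2 of the granule lineage. Marcksl1, Nrep, Ncam1, Sox4 and Tagln3 were among those lower.

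Of 30 other genes of mature neurons 15 were tested, and 10 were lower and 1 higher (9 and 1 on rescaled TPM). Over all genes tested 56.4% were lower and 8.22% higher (21.2% and 27.3% on rescaled TPM). Camk2a, a kinase of forebrain excitatory synapses, averaged 2.11 ± 1.02 TPM (SD, n = 5) in TAMs against 28.1 ± 21.0 TPM (SD, n = 3) in microglia, a log2 fold change of -3.00 (limma, adjusted p = 0.00117). Vamp2, Stx1a and Snhg11 were also lower.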

How the data were processed

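A single deposited table of 38026 genes was read. Its TPM values, 1 column per library, were made by the authors, as the file headers show. The same authors' deposited table holds a mean normalised signal, a log2 fold change and a p-value with no adjustment. The submitters' processing notes name the build mm10, FastQC and, for the authors' comparison, DESeq2. No aligner, quantifier, annotation or strandedness is stated (not given in the sources used here). Entries in 3 columns with no name were left out.

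Groups and replicate numbers came from the sample titles. Nothing but the ages says which libraries are from separate mice, so p-values measure the spread between these libraries, which may be technical. Because the table holds TPM, genes at 1 TPM or more in at least 3 libraries (15262) were tested with limma 3.58.1 in R 4.3.3 (trend, pseudocount 1, Benjamini-Hochberg at 0.05), after a check on simulated data. Alternatives were rescaled TPM, a pseudocount of 0.1, no minimum, age as a covariate, a replicate block and leaving out each library on either scale. The 28 genes and the other lists were chosen with earlier results of these data known. Named are all 28 genes, at most 6 called genes per other list in order of p, and every gene of a count of 5 or fewer. A few genes that this rule would name are left out of the text. Genes called only on rescaled TPM or in the deposited table were named after their values were seen. Promoter windows are from RefSeq on GRCm38.p6.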

Additional observations from a re-analysis of the deposited data

Results flagged for a closer look

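TAM replicate 5 stood apart from the other 4 TAM libraries for 23 of the 28 genes. The measure was the gap between replicate 5 and the next library divided by the range of the 5, on TPM, against a critical value of 0.71. Chance passes that value in about 1 of 20 groups of normally distributed values, and whether TPM meets that condition was not checked. The measure was taken for the 28 genes alone, so no share over all genes can be set beside the 23. On TPM replicate 5 was the highest TAM library for 55.2% of all genes above 0 in some TAM library. In the granule lineage the values were Atoh1 (0.818), Zic1 (0.85), Zic2 (0.79), Zic4 (0.816), Barhl1 (0.834), Barhl2 (0.724), Pax6 (0.817), Neurod1 (0.714), Nhlh1 (0.815), Nhlh2 (0.866) and Insm1 (0.891). In the Hedgehog group they were Gli1 (0.819), Gli2 (0.889), Ptch1 (0.715), Hhip (0.823), Mycn (0.843), Sfrp1 (0.875) and Boc (0.912). Among young neuron genes they were Dcx (0.764), Sox11 (0.858), Cntn2 (0.768) and Stmn2 (0.775), and Nrgn (0.846) was the 1 mature neuron gene. The 23 values come from the same library and are not independent of each other.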

How the results depend on the processing

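Over all genes, 1254 were higher and 8610 lower in TAMs, and on rescaled TPM 4167 and 3241. Leaving out 1 library gave 894 to 1303 higher and 5581 to 9243 lower on TPM, and 2863 to 4433 higher and 1546 to 3414 lower on rescaled TPM. Of the 28 genes, the 5 called higher became 3 with no minimum and 3 with the replicate block, and 1 to 7 without 1 library (3 to 8 on rescaled TPM). The 6 called lower became 4 to 8 without 1 library (3 to 5 on rescaled TPM). Replicate numbers did not pair the libraries: deviations of same-numbered libraries correlated at 0.15, 0.01 and -0.05. Over all genes the block gave 1103 higher and 8613 lower, and the fit with no minimum 1215 and 11078. Signs of the log2 fold change turned for 3 genes that no setting called. Pax6 (-0.44) was 0.10 on rescaled TPM and -0.86 to 0.31 over all fits without 1 library on either scale. Gli1 (0.02) was -0.032 with a pseudocount of 0.1, -0.39 with the block and -0.33 to 0.66 without 1 library. Sfrp1 (0.28) was -0.25 with the block and -0.24 to 1.14 without 1 library. The causes were not tested. Depth is unknown, and values well below 1 TPM may rest on few reads.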
